A study of Equus caballus with 10 samples.

Results

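The genes examined here are 10 genes of the inflammasome and of pyroptosis, given by name as NLRP1, NLRP3, NLRX1, NOD1, NOD2, PYCARD, CASP1, CASP4, GSDMD and GSDME. Of these, 9 were found by name among the 29196 genes measured. PYCARD was found as LOC100063252, through its RefSeq gene ID, and its values are given beside those of the 9. RNA was sequenced from tenocytes of the superficial digital flexor tendon of 5 adult horses, which had been kept for 14 days in 3D gels of bovine collagen. PF-06650833, which blocks the kinase IRAK-4 downstream of the IL-1 receptor, was added every day at 100 nM to the cells of both groups. Each donor gave 1 library with the inhibitor alone and 1 library in which IL-1β at 17 ng/ml, renewed every 3 to 4 days, was given on top of it (IL-1β plus inhibitor). The comparison of the 2 groups shows what differed with IL-1β in the presence of the inhibitor, and the effect of the inhibitor itself was not analysed here. Each donor is 1 primary cell line, and the donors are called donors 1 to 5.

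Inflammasomes are protein complexes that assemble in the cytosol when a sensor such as NLRP3 or NLRP1 detects danger or infection. The sensor recruits the adaptor PYCARD (also called ASC), which brings in caspase-1, and caspase-1 cuts the precursors of IL-1β and IL-18 into their active forms and cuts gasdermin D, whose fragment forms pores in the cell membrane. The lytic death that follows is called pyroptosis. NOD1 and NOD2 are related sensors of bacterial cell wall fragments that signal through the kinase RIPK2 to NFκB rather than through caspase-1. In many cell types transcription of NLRP3 and IL1B is induced by NFκB, which is known as priming, and IL-1β itself is a priming signal.

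The deposited values are on a variance-stabilized log2 scale on which a gene with 0 reads has the value 3.433. Inverting the transformation gave normalized counts, on which 1 read was worth an estimated 1.04 to 1.41, from the spacing of the lowest values. Depending on the library, 62.6% to 82.7% of low values fell no more than 0.15 from a whole read, where an even spread would give 30%. Tenocyte identity was checked with 12 markers, of which 11 were found by name. COL1A1, COL1A2, SCX and MKX had reads in all 10 libraries while the late tenocyte marker TNMD was at 0 reads in all of them. The 11 tenocyte markers together ranged from 980645 to 1597469 normalized counts in the libraries of the inhibitor alone. In the IL-1β plus inhibitor libraries the range was 280663 to 1090448. SCX, a transcription factor of tendon cells, was at 1179 to 4625 normalized counts with the inhibitor alone and at 97.6 to 343 with IL-1β. MKX, another such factor, was at 1989 to 6355 and at 171 to 1440, and COMP at 12669 to 63868 and at 1010 to 10689. These markers did not overlap between groups (12.7% of all tested genes did not). The other tenocyte markers with reads overlapped. DCN (25061 to 159648 and 35126 to 164449) and THBS4 (13.6 to 413 and 3.42 to 556) reached higher values with IL-1β. The part of these shifts in the results was not tested. In bulk RNA, fewer cells of a type and less RNA per cell cannot be told apart. Reads were compared between groups per gene, and levels are not compared between genes, since the values are not scaled to transcript length.

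None (0) of the 7 tested genes found by name was differentially expressed between the groups by limma, counted where the adjusted p was below 0.05 and the log2 fold change reached 1 in either direction. Of all 17992 tested genes 6.68% were, 3.11% higher and 3.57% lower with IL-1β. Among these 7 genes, 4 had an unadjusted p below 0.05 (29.7% of all genes). At any fold change, 2 of the 7, NOD2 and CASP4, had an adjusted p below 0.05 (15.5% of all genes). The differences of NOD2 and CASP4 were short of 1 on the log2 scale. With the donor as a block in the fit, NLRP3 was differentially expressed (8.26% of all genes were), and 4 genes had an adjusted p below 0.05 (22.2% of all genes), namely NLRP3, NOD2, CASP4 and NLRX1. The median log2 fold change of the 7 genes was 0.29, against -0.01 over all tested genes. PYCARD also had an adjusted p below 0.05 only with the donor block. NLRP1 and CASP1 had reads in too few libraries to be tested.

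**Figure D1:**
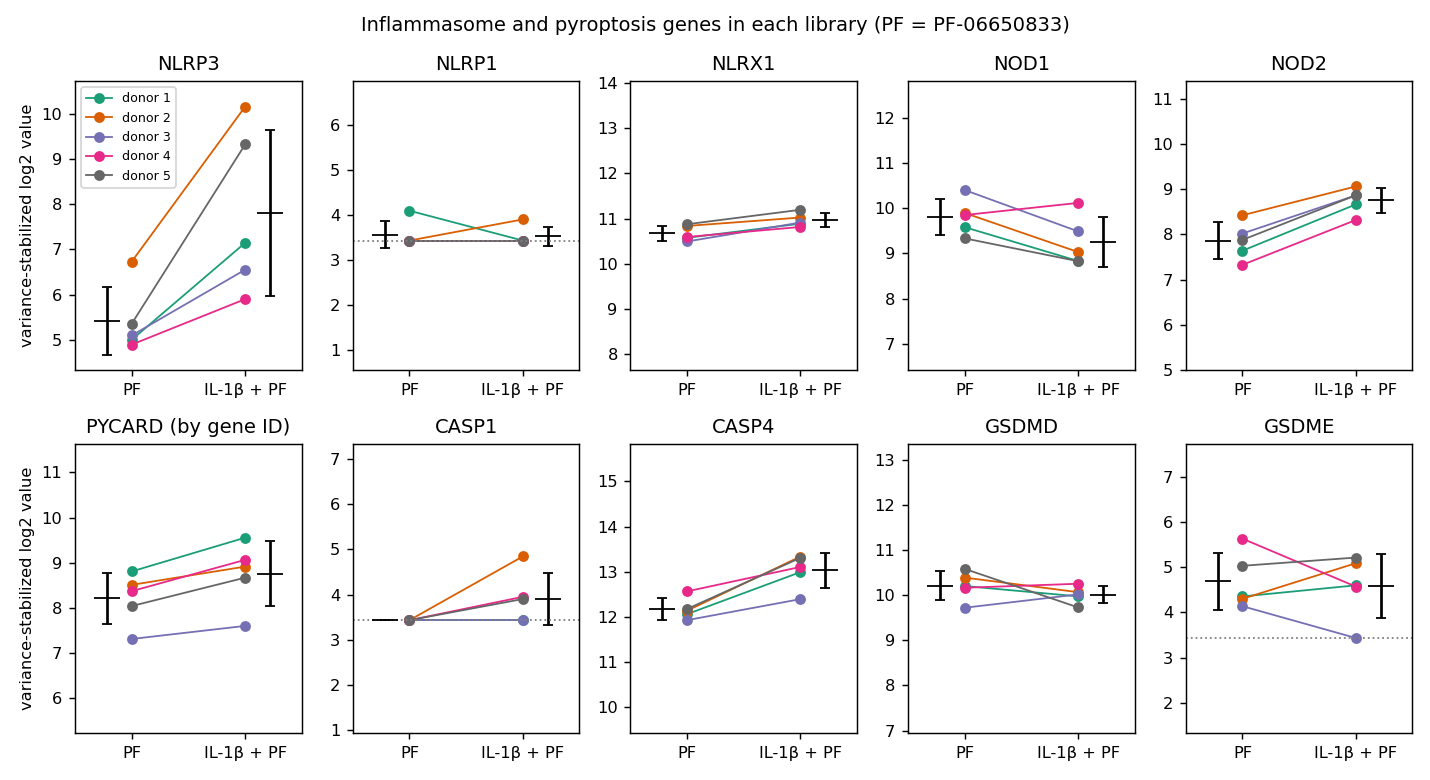
Variance-stabilized log2 values of the 10 genes in each library, with the inhibitor alone (PF) and with IL-1β plus inhibitor, lines joining the libraries of a donor, and bars beside the points giving the mean ± SD of 5 libraries. All panels span the same number of log2 units and the dotted line marks 0 reads (3.433). NLRP3, NOD2, NLRX1, PYCARD and CASP4 were higher with IL-1β plus inhibitor in 5 of 5 donors, and CASP1 was at 0 reads in every library of the inhibitor alone.

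NLRP3, the inflammasome sensor that responds to many forms of cell stress, had the largest difference of the tested genes and the widest spread between donors. With the inhibitor alone its normalized counts were 14.0, 85.7, 16.0, 12.0 and 22.2 in donors 1 to 5. With IL-1β plus inhibitor they were 121, 1121, 73.3, 40.0 and 618 in the same order. Every donor was higher with IL-1β plus inhibitor, by between 3.32-fold in donor 4 and 27.8-fold in donor 5, but the groups overlapped, since donor 2 with the inhibitor alone was above donors 3 and 4 with IL-1β plus inhibitor. The mean log2 value of NLRP3 was 5.41 ± 0.76 (SD, n = 5) for the inhibitor alone, against 7.81 ± 1.84 (SD, n = 5) when IL-1β was present. The log2 fold change was 2.40 (standard error 0.77, 95% confidence interval 0.72 to 4.08, adjusted p = 0.0568 from limma). With the donor block the standard error was 0.43 and the adjusted p = 0.00753 from limma, which counts NLRP3 as differentially expressed. On back-transformed log2(normalized count + 1) values, which compress low counts less, the difference was 3.05 (adjusted p = 0.0424 from limma). Leaving out donor 4 (adjusted p = 0.0458), its library with IL-1β plus inhibitor (0.0200) or that of donor 3 (0.0420) also brought NLRP3 past the threshold. In the other 12 of 15 fits without 1 library or donor the adjusted p was above 0.05, up to 0.201 without donor 5, and the log2 fold change over the 15 fits was 1.81 to 2.88.

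The order of the donors was much the same in both groups. Donors 2 and 5 had the highest NLRP3 values and donor 4 the lowest, with and without IL-1β. The genes with a symbol whose values followed NLRP3 most closely over the 10 libraries were NETO1 (Pearson r = 0.989), NAAA (0.985), which encodes an enzyme that breaks down fatty acid amides, and ANK3 (0.980), an ankyrin gene. The 10 libraries come from 5 donors and share the difference between groups, so these correlations are a description. For the cytokine genes described below, r with NLRP3 was 0.928 for IL1A, 0.904 for IL18 and 0.723 for IL1B.

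NLRP3 is best known from myeloid cells, and 12 markers of such cells were examined beside it. The markers AIF1 and TYROBP were at 0 reads in all 10 libraries, and PTPRC, which marks leukocytes, had reads in 1 library, donor 4 with the inhibitor alone (3.09 normalized counts). The 10 markers other than CD14 and CD68 summed to between 6.42 and 33.7 normalized counts with the inhibitor alone and to between 3.41 and 61.7 with IL-1β plus inhibitor. CD68, a lysosomal protein that is not limited to myeloid cells, was at 52.8 to 103 normalized counts with the inhibitor alone and at 170.0 to 738 with IL-1β plus inhibitor, where it was highest in donors 2 and 5, as NLRP3 was. CD14, a co-receptor for lipopolysaccharide, was at 0 reads in donors 3, 4 and 5 with the inhibitor alone and at 1662 normalized counts in donor 1. With IL-1β plus inhibitor it was at 0 in donor 3 and between 410 and 1682 in the others. The whole list summed to between 65.3 and 1770 with the inhibitor alone and to between 173 and 1948 with IL-1β plus inhibitor, and its part in the NLRP3 result was not tested. Of 5 lymphoid markers, 4 were at 0 reads in all libraries, and the 5 endothelial markers summed to at most 45.9 normalized counts in any library.

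NLRP1, an inflammasome sensor that is abundant in skin and airway epithelium, had reads in 2 of the 10 libraries. These were donor 1 with the inhibitor alone (2.31 normalized counts) and donor 2 with IL-1β plus inhibitor (1.15), so both groups were at or under a floor of 3 reads and no fold change is given. NLRP1 was thus near the limit of detection, and no difference was detectable at this depth.

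NLRX1, a member of the NLR family that sits at mitochondria and dampens antiviral and NFκB signalling, varied least. Its log2 values were 10.58, 10.84, 10.50, 10.60 and 10.88 in donors 1 to 5 with the inhibitor alone. They were 10.89, 11.02, 10.91, 10.82 and 11.20 with IL-1β plus inhibitor. Every donor was slightly higher with IL-1β plus inhibitor, by 0.19 to 0.42 on the log2 scale, and the groups overlapped. The log2 fold change was 0.29 (standard error 0.11, adjusted p = 0.0900 from limma), and with the donor block the standard error was 0.08 and the adjusted p = 0.0324 from limma. The 95% confidence interval with the block, 0.11 to 0.47, leaves NLRX1 well short of a log2 fold change of 1.

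The peptidoglycan sensors NOD1 and NOD2 were compared as a pair. NOD2, which senses muramyl dipeptide, had log2 values of 7.64, 8.42, 8.02, 7.33 and 7.88 in donors 1 to 5 with the inhibitor alone. In the presence of IL-1β the values were 8.66, 9.06, 8.86, 8.32 and 8.86. Each donor was higher with IL-1β plus inhibitor, by 0.64 to 1.02 on the log2 scale, and the groups overlapped only in that donor 2 with the inhibitor alone lay above donor 4 with IL-1β plus inhibitor. The means were 7.86 ± 0.41 (SD, n = 5) and 8.75 ± 0.28 (SD, n = 5), which differ by 0.90 (standard error 0.22, 95% confidence interval 0.42 to 1.37, adjusted p = 0.0177 from limma). In normalized counts this was an increase from 218 to 416 on average, or 1.91-fold. The adjusted p was no longer below 0.05 without donor 2's library with IL-1β plus inhibitor (0.0502), without donor 1 (0.0825) or without donor 5 (0.0815), and the log2 fold change ranged from 0.76 to 1.04 over 15 fits, each without 1 library or 1 donor.

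NOD1, which senses a fragment found mainly in Gram-negative cell walls, had log2 values of 9.58, 9.89, 10.40, 9.85 and 9.33 with the inhibitor alone. The values with IL-1β plus inhibitor were 8.83, 9.03, 9.49, 10.12 and 8.83. Donors 1, 2, 3 and 5 were lower with IL-1β plus inhibitor, by 0.51 to 0.92 on the log2 scale, while donor 4 was higher by 0.27. The log2 fold change of -0.55 (standard error 0.27, 95% confidence interval -1.14 to 0.04, adjusted p = 0.197 from limma) did not pass the test, nor did it with the donor block (adjusted p = 0.0605). Without donor 4's library with IL-1β plus inhibitor it was -0.77 (adjusted p = 0.0355 from limma).

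The difference between the responses of NOD1 and NOD2 was tested directly, as the NOD1 value minus the NOD2 value in each library. With the inhibitor alone this difference was 1.94, 1.47, 2.38, 2.52 and 1.45 on the log2 scale in donors 1 to 5. With IL-1β plus inhibitor it was 0.17, -0.03, 0.62, 1.80 and -0.04, lower in 5 of 5 donors. The mean went from 1.95 ± 0.50 (SD, n = 5) to 0.50 ± 0.77 (SD, n = 5), a change of -1.45 on the log2 scale (exact two-sided permutation test, p = 0.0238, adjusted p = 0.0476 over 4 pairs of genes). One of the 4 pairs, NLRP1 minus NLRP3, restates NLRP3, and over the 3 pairs without it the adjusted p was 0.0714 (the same exact test), so the call rests on that pair. The groups overlapped through donor 4. Without 1 of the 10 libraries the adjusted p over 4 pairs was 0.0635 to 0.0952 and the change -1.77 to -1.31. Tests without a donor, 4 libraries against 4, cannot give an exact p below 0.0286. A paired exact test over the 5 donors cannot give a p below 0.0625, and it gave an adjusted p of 0.125.

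**Figure D2:**
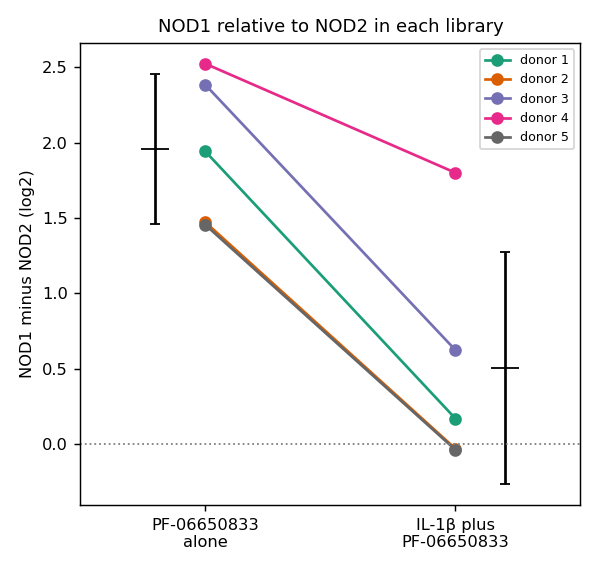
The log2 value of NOD1 minus that of NOD2 in each library, for the inhibitor alone and for IL-1β plus inhibitor, with lines joining the libraries of a donor and the mean ± SD of 5 libraries beside the points. The difference was lower with IL-1β plus inhibitor in all 5 donors, least so in donor 4 (2.52 to 1.80). Since values are not scaled to transcript length, the change in the difference can be read and its height cannot.

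PYCARD, the adaptor that joins the sensor to caspase-1, had log2 values of 8.81, 8.51, 7.31, 8.37 and 8.04 with the inhibitor alone. They were 9.56, 8.92, 7.60, 9.07 and 8.67 with IL-1β plus inhibitor. The donors differed more from each other than the groups did, with donor 1 highest and donor 3 lowest in both groups, and each donor was higher with IL-1β plus inhibitor, by 0.29 to 0.75 on the log2 scale. The log2 fold change was 0.55 (standard error 0.36, adjusted p = 0.348 from limma), and with the donor block the standard error was 0.12 and the adjusted p = 0.0163 from limma. PYCARD is the gene of this group in which the donor block reduced the standard error by the largest factor.

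The inflammatory caspases were measured at very different depths. CASP1, the gene of the enzyme that matures IL-1β and IL-18, was at 0 reads in all 5 libraries of the inhibitor alone. With IL-1β plus inhibitor it was at 0 in donors 1 and 3, at 11.2 normalized counts in donor 2, at 1.40 in donor 4 and at 1.15 in donor 5, a mean of 2.74. Both group means were thus at or under the floor of 3 reads, and no fold change is given. In a fit over all 21298 genes that are not constant, CASP1 did not pass the test (adjusted p = 0.223 from limma, and 0.173 with the donor block).

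CASP4, whose product senses lipopolysaccharide in the cytosol and cuts gasdermin D, was well measured. Its log2 values were 12.06, 12.14, 11.93, 12.57 and 12.18 in donors 1 to 5 with the inhibitor alone. They were 12.99, 13.34, 12.39, 13.11 and 13.31 with IL-1β plus inhibitor. Each donor was higher, by 0.47 to 1.20 on the log2 scale, and the groups overlapped only because donor 4 with the inhibitor alone lay above donor 3 with IL-1β plus inhibitor. The log2 fold change was 0.85 (standard error 0.18, 95% confidence interval 0.45 to 1.25, adjusted p = 0.0101 from limma), or 1.84-fold in mean normalized counts, from 4655 to 8552. Without donor 3's library with IL-1β plus inhibitor it was 1.01 (adjusted p = 0.00136 from limma), past the minimum fold change. The adjusted p was not below 0.05 without donor 1 (0.0593), donor 2 (0.0617) or donor 5 (0.0566). CASP1 and CASP4 lie next to each other, with 0 annotated genes between them in the RefSeq table of the TB-T2T horse assembly. They are paralogs, so reads could be shared between their transcripts and both values are less certain. Their sequences were not compared, and sharing of reads was not tested. The change of CASP1 relative to CASP4 was -0.37 on the log2 scale (exact two-sided permutation test, p = 0.111, adjusted p = 0.148 over 4 pairs). It turned to 0.34 or 0.78 on back-transformed values with a pseudocount of 1 or 0.5, and rests on few CASP1 reads.

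The gasdermins, the pore-forming proteins at the end of the pathway, did not change detectably. GSDMD had log2 values of 10.20, 10.39, 9.72, 10.16 and 10.58 with the inhibitor alone. The values with IL-1β plus inhibitor were 9.97, 10.07, 10.02, 10.25 and 9.73. It was lower in 3 donors and higher in 2, with a log2 fold change of -0.20 (95% confidence interval -0.55 to 0.14, adjusted p = 0.429 from limma) that leaves changes of 1 or more outside the interval. GSDME, whose cleavage can turn apoptosis into lytic death, had few reads. Its normalized counts were 4.53, 4.02, 2.62, 30.3 and 14.7 with the inhibitor alone and 7.44, 15.8, 0, 7.07 and 18.6 with IL-1β plus inhibitor. It was higher in 3 donors and lower in 2, with a log2 fold change of -0.11 (95% confidence interval -0.94 to 0.72, adjusted p = 0.885 from limma), and its sign turned when some of the libraries were left out. The difference between the responses of GSDMD and GSDME was -0.09 on the log2 scale (exact two-sided permutation test, p = 0.841, adjusted p = 0.841 over 4 pairs). The remaining pair, NLRP1 minus NLRP3, is not read as a result, since NLRP1 was at 0 reads in 8 of 10 libraries.

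**Figure D3:**
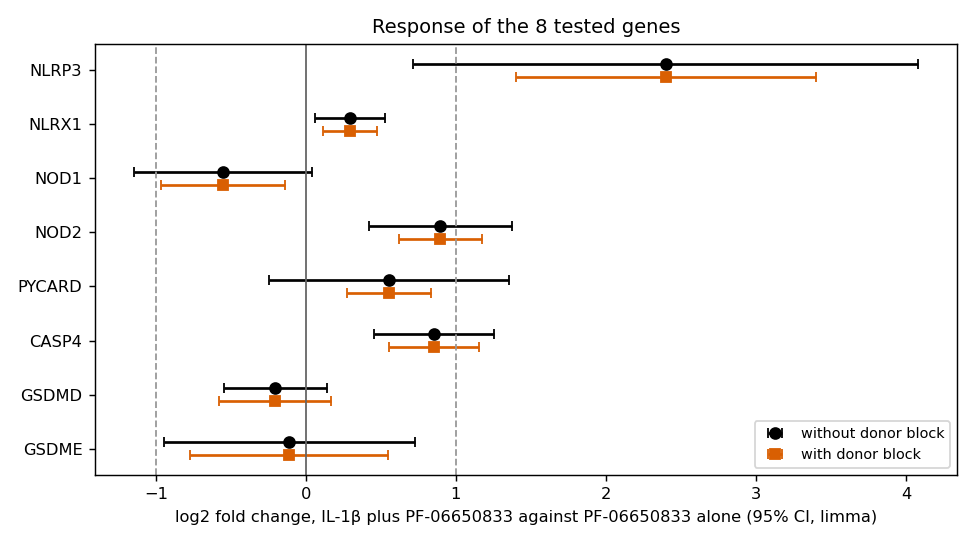
Log2 fold changes of the 8 tested genes (IL-1β plus inhibitor against inhibitor alone) with 95% confidence intervals from limma, without the donor block (circles) and with it (squares). Dashed lines mark the minimum fold change of 1 on the log2 scale. NLRP3 (2.40) lies beyond it, NOD2 (0.90) and CASP4 (0.85) just within it, and the block narrows the interval most for NLRP3 and PYCARD.

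Of 62 other genes described for the inflammasome, NOD and pyroptosis pathways, 57 were in the table by name and 52 were tested. Differential expression was found for 7 of these 52 by limma, 6 higher and 1 lower with IL-1β plus inhibitor, or 13.5% against 6.68% of all genes. Their median log2 fold change was 0.12, against -0.01 over all genes. The list was chosen with earlier results of these data known, so neither comparison with all genes is independent of the data. The 7 genes were the cytokine genes IL1A and IL1B, the NOD pathway genes BIRC2, BIRC3 and SLC15A3 and the guanylate-binding protein GBP5, all higher, and TXNIP, which was lower. IL1A was among the 52 tested genes only through its reads with IL-1β plus inhibitor. With the donor block there were 10, and over all genes the share rose as well, to 8.26%. The additional genes were NLRC5 and IL18 (higher) and IL33 (lower).

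Of the cytokines and antagonists linked to the inflammasome, 6 of 7 were tested. Of these 6, 2 were differentially expressed, IL1A and IL1B (6.68% of all genes were). IL1B, whose product caspase-1 matures, was at 0 reads in 4 of the 5 libraries of the inhibitor alone and at 1.13 normalized counts in donor 1. With IL-1β plus inhibitor it was at 65.9, 96.3, 12.7, 68.1 and 39.7 in donors 1 to 5. The groups did not overlap (12.7% of all genes did not), and the adjusted p was 6.52e-04 from limma. IL1A, which needs no caspase-1 for its activity, was at 0 reads in all libraries of the inhibitor alone and at 16.9, 170, 1.11, 12.2 and 76.5 normalized counts with IL-1β plus inhibitor. Against a floor of 3 reads per library, its group mean of 55.4 normalized counts was at least 14.0-fold higher (adjusted p = 0.0242 from limma). IL1A passed the filter of reads in 5 libraries only through the group in which it was higher, so its p is not independent of that filter. For IL1B the same held but for 1 library. Without donor 2 the mean of IL1A was 26.7 normalized counts and its bound 6.74-fold, and IL1A in donor 3 was itself under the floor. IL1A lost its call in 7 of those 15 fits, those without donor 1, 2 or 5, without the inhibitor alone library of donor 1, 4 or 5, or without the IL-1β plus inhibitor library of donor 5 (adjusted p up to 0.108).

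IL18 is the other classical substrate of caspase-1. Its normalized counts were 74.4, 183, 57.3, 109 and 188 with the inhibitor alone and 319, 479, 205, 121 and 747 with IL-1β plus inhibitor. All donors were higher, donor 4 by 1.10-fold and the others by 2.61-fold to 4.29-fold. The log2 fold change was 1.34 (standard error 0.45, adjusted p = 0.0702 from limma, and 0.0104 with the donor block). IL33, an alarmin of the same family that caspases inactivate, was lower in 5 of 5 donors, with a log2 fold change of -1.67 (adjusted p = 0.0744 from limma, and 0.00635 with the donor block). Each of the 6 tested cytokines and antagonists had an unadjusted p below 0.05 (29.7% of all genes), and 2 of the 6 had an adjusted p below 0.05 by limma (15.5% of all genes). These 2 were IL1A and IL1B. IL1A was tested only through its reads with IL-1β plus inhibitor, and IL1B had reads in 1 library of the inhibitor alone. Both counts are thus not independent of the filter.

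Downstream of NOD1 and NOD2, the ubiquitin ligases BIRC2 and BIRC3 (cIAP1 and cIAP2), which act on RIPK2, rose with log2 fold changes of 1.09 (standard error 0.09, adjusted p = 1.07e-04) and 2.49 (standard error 0.37, adjusted p = 0.00158 from limma). BIRC3 is also a widely used NFκB target gene. SLC15A3, a transporter that carries muramyl dipeptide out of endosomes, rose by 1.74 (adjusted p = 0.0210 from limma), but lost its call in 6 of the 15 fits, those without donor 1, 2, 3 or 5, without the inhibitor alone library of donor 1, or without the IL-1β plus inhibitor library of donor 2 (adjusted p up to 0.0603). RIPK2 itself, the kinase that joins NOD1 and NOD2 to NFκB, had a log2 fold change of 0.12 (adjusted p = 0.688 from limma), and MAP3K7 (TAK1) one of -0.67 (adjusted p = 0.00215), short of the minimum fold change. Of the 13 NOD signalling genes, 3 were differentially expressed (6.68% of all genes were), all higher (3.11% of all genes).

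TXNIP, a binder of thioredoxin that has been described as an activator of NLRP3, fell in 5 of 5 donors by 1.73 on the log2 scale (standard error 0.28, adjusted p = 0.00277 from limma). NEK7, the kinase that NLRP3 needs to assemble, had a log2 fold change of 0.07 (adjusted p = 0.770 from limma). GBP5, an interferon-induced protein linked to NLRP3 assembly, had normalized counts of 3.44, 8.32, 0, 1.12 and 1.01 with the inhibitor alone. They were 193, 453, 95.8, 3177 and 34.8 with IL-1β plus inhibitor, an increase of 4.16 on the log2 scale (standard error 0.88, adjusted p = 0.00983 from limma). The variance-stabilized scale compresses low counts. Mean normalized counts of GBP5 went from 2.78 to 791, a ratio that rests on few reads with the inhibitor alone. Guanylate-binding proteins form a family of similar genes, so these values are less certain. Of 11 tested activators and regulators, GBP5 was the 1 gene called higher (3.11% of all genes) and TXNIP the 1 called lower (3.57% of all genes).

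Of the 6 other caspases described here, none (0) was differentially expressed by limma (6.68% of all genes were). An unadjusted p below 0.05 was found for 1 of them (29.7% of all genes). CASP8, an initiator caspase that can also cut gasdermin D, had a log2 fold change of 0.27 (adjusted p = 0.386 from limma). Of the other sensors, 7 of 11 were tested and none (0) was differentially expressed by limma (6.68% of all genes were). An unadjusted p below 0.05 was found for 2 of the 7 (29.7% of all genes). NLRC5, an activator of MHC class I genes, was at 1.71 (adjusted p = 0.0540 from limma, and 0.0480 with the donor block). NLRP6 was at 0 reads in all libraries, and NAIP and NLRP12 had at most 3.59 normalized counts. No gene (0) of the 5 tested in the group of other gasdermins and lysis, or of the 4 partners of NLRX1, was differentially expressed by limma. In these groups 1 and 0 genes had an unadjusted p below 0.05, against the same shares of all genes, 6.68% and 29.7%.

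**Figure D4:**
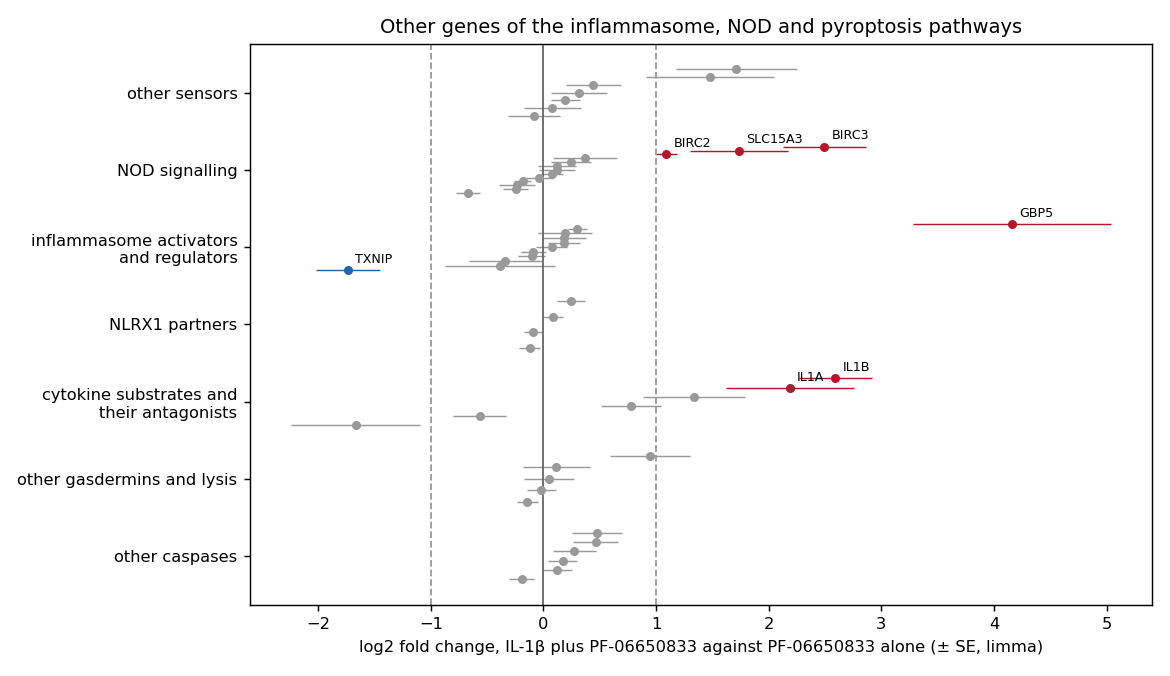
Log2 fold changes ± standard error from limma of the 52 other tested pathway genes (IL-1β plus inhibitor against inhibitor alone), grouped by role, with dashed lines at 1 and -1. Red and blue points are the 6 higher and the 1 lower differentially expressed genes, and grey points are genes that were not differentially expressed. GBP5 (4.16) has the largest increase and TXNIP (-1.73) is the gene called lower, among 18 with a negative fold change.

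The size of the difference varied between donors, and the donor with the largest difference varied between genes. Donors 2 and 5 had the largest differences in NLRP3 (3.43 and 3.96 on the log2 scale), IL1A (4.15 and 3.17) and CASP4 (1.20 and 1.13). Donor 4 had the smallest difference in NLRP3 (1.00) and IL18 (0.12) and was the donor in which NOD1 was not lower. The same donor had the largest differences in NLRC5 (4.19, against -0.05 to 1.47 in the others) and in GBP5 (7.75, against 1.89 to 4.23). NOD2, PYCARD and NLRX1 varied less, with standard deviations of the difference over 5 donors of 0.16, 0.20 and 0.09, against 1.27 for NLRP3. There is 1 library for each donor and treatment, so differences between donors were not tested.

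**Figure D5:**
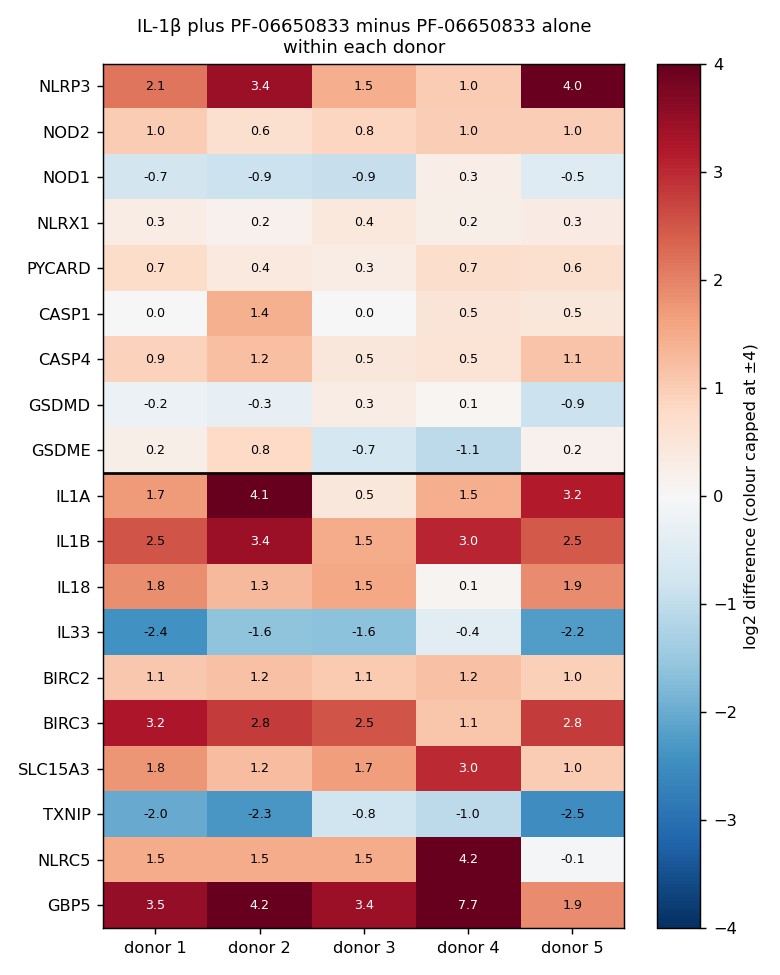
Log2 value with IL-1β plus inhibitor minus that with the inhibitor alone in each of the 5 donors, for 9 of the inflammasome and pyroptosis genes (above the line, without NLRP1) and 10 other pathway genes, with colour capped at ±4. NOD2, NLRX1, PYCARD and CASP4 were higher in every donor. NLRP3 rises most in donors 2 and 5 while NLRC5 and GBP5 rise most in donor 4.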

How the data were processed

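Gene expression was measured by RNA sequencing in 10 libraries, 5 per group, grouped by the treatment label and paired by the tenocyte line named in the labels. Reads were assigned by the authors to EquCab3.0 transcripts using Salmon (version 1.8, GC-bias correction), imported using tximport and deposited as variance-stabilized log2 values normalized between libraries, for 29196 genes. The transformation was recognised from the values, whose minimum of 3.433 is shared by all libraries. The paper lists the same values beside control and IL-1β alone libraries, which were not used here. The authors' test with DESeq2 (version 1.36) needs counts and was not repeated. Of 10 value columns all were used.

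limma (version 3.58.1, with R version 4.3.3), fitting a mean-variance trend and no donor term, as the methods name none, was applied to the 17992 genes with reads in 5 or more of the 10 libraries, with Benjamini-Hochberg adjustment over all tested genes. The fit with the donor as replicate block was made beside it. Deviations from the group means went together within a donor (correlations across genes of 0.367 to 0.506 over 5 pairs, against a mean of -0.107 over 20 pairs of different donors), so the numbers pair the libraries. Differences between 4 pairs of genes were tested by exact permutation over libraries. On simulated counts of 18784 genes for this comparison, the fit found 95 of 100 genes changed by 1.5 on the log2 scale. It found 100 of 100 changed by 2.5, with 0 false calls. The simulated counts were independent between libraries, had a set spread and no donor effect, and only genes above the lowest counts were changed. They therefore do not show how often a gene as variable between donors as NLRP3 would be found. No 2 libraries were identical (Pearson r 0.966 to 0.991).

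The members and lists were chosen with earlier results of these data known. All members are described, of the other pathway genes those differentially expressed and IL1A, IL1B and IL18, and for NLRP3, differentially expressed with the donor block, the 3 genes most correlated with it. The other pathway genes named with values, among them RIPK2, MAP3K7, NEK7, CASP8, NLRC5 and IL33, were chosen after their values were seen. Gene names were matched to RefSeq genes of the TB-T2T assembly. Positions and sequences are not given here. Of the pathway list first written, 2 genes are not reported here and are in none of its counts. The alternatives were other variance models, filters, scalings, thresholds, the replicate block, and omitting single libraries or donors.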

Additional observations from a re-analysis of the deposited data

Results flagged for a closer look

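By Dixon's test, 1 library stood apart in 4 of the 38 groups of 5 libraries examined. A group with reads in a single library is always flagged. The 1.90 groups expected by chance (1 in 20) therefore cannot be set against this count. NLRP3 with the inhibitor alone was at 6.73 on the log2 scale in donor 2, against 4.89 to 5.36 in the others. In the remaining 3, the gene had reads in a single library of the group: NLRP1 at 4.09 in donor 1 with the inhibitor alone, NLRP1 again at 3.90 in donor 2 of the other group, and IL1B with the inhibitor alone at 3.90 in donor 1.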

How the results depend on the processing

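Among the 9 genes found by name, 1 was differentially expressed, NLRP3, with the replicate block (donor), with array weights (adjusted p = 0.0207), on back-transformed values with a pseudocount of 1 or 0.5, with the replicate block on back-transformed values and with the replicate block over all genes that are not constant, the last chosen after seeing the data. Without a minimum fold change there were 2, NOD2 and CASP4, and under the other settings run for all libraries 0. Leaving out a library or a donor gave 0 to 2, with 2 (NLRP3 and CASP4, or NLRP3 and NOD2) without the IL-1β plus inhibitor library of donor 3 or 4, and 1 without donor 4 (NLRP3) or the inhibitor alone library of donor 2 (NOD2). The 7 pathway genes differentially expressed became 4 among genes with reads in all 10 libraries, 11 with array weights, 12 with the replicate block on back-transformed values, and 5 to 9 when a library or donor was left out. Over all genes, 1202 became 1809 with the replicate block on back-transformed values, 2782 with no minimum fold change, 719 at an adjusted p below 0.01, and 762 to 1422 when a library or donor was left out, with 762, 790 and 777 without donors 1, 2 and 5.

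Of the pairs, NOD1 minus NOD2 (-1.45) lost its call when adjusted over the 3 pairs without NLRP1 minus NLRP3 (adjusted p = 0.0714, exact test, chosen after seeing the data). It and NLRP1 minus NLRP3 (-2.44), which restates the NLRP3 difference, were not below 0.05 in the paired test with the replicate block (adjusted p = 0.125 for both, exact test, where 0.0625 is the smallest p before adjustment) or when a library or donor was left out (4 libraries against 4 cannot give an adjusted p below 0.0571 with 2 equal lowest p), with differences of -1.77 to -1.31 and of -2.89 to -1.95. CASP1 minus CASP4 turned to 0.34 and 0.78, and GSDMD minus GSDME to 0.0184 and 0.16, on back-transformed values with a pseudocount of 1 and 0.5. GSDMD minus GSDME ranged from -0.41 to 0.16 and GSDME from -0.33 to 0.18 when a library or donor was left out. Beyond these and the genes named in the results, the block changed no call among the genes found by name, and the direction of the other tested genes held under the 29 alternatives. The causes were not tested. NLRP1, CASP1 and GSDME had few reads (at most 2.31, 11.2 and 30.3 normalized counts).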
